A study of Mus musculus with 11 samples.

Results

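Malat1, Neat1, Meg3, Rian, Mirg and H19 are long noncoding RNAs, long transcripts that encode no known protein. They were picked by gene symbol as RNAs kept in the nucleus or expressed from the maternal chromosome, and all 6 were among the 18269 genes of the deposited expression table. Of the 6, 5 reached the minimum used for testing, at least 1 CPM (read counts scaled to a library total of 1000000) in at least 3 libraries, which 13187 genes passed. Mirg did not. The libraries came from the tibialis anterior, a shin muscle of mostly fast fibres, of C57BL/6 mice 21 to 24 months old. The injection was saline in 4 libraries, young serum in 4, and in 3 a young serum depleted of extracellular vesicles (EVs), the small membrane-bound carriers that cells shed. The labels point to an injury model for all samples without saying when the tissue was taken after injury. They do not say whether each library came from its own animal, so the p-values measure the spread between these libraries, which may be technical.

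Malat1 gathers in nuclear speckles, the bodies where splicing factors are stored, and Neat1 is the scaffold on which the proteins of paraspeckles assemble. The genes of both lie side by side on chromosome 19, and Malat1 and the long isoform of Neat1 end through cleavage by RNase P at a transfer RNA-like structure instead of an ordinary poly(A) signal. Meg3, Rian and Mirg are expressed from the maternal copy of the Dlk1-Dio3 imprinted domain and carry microRNAs and small nucleolar RNAs of that domain. H19 is expressed from the maternal copy of the H19-Igf2 domain, is abundant in fetal muscle, persists in adult muscle and contains miR-675. In muscle, H19 and Meg3 have been studied in myoblast differentiation and regeneration.

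On mm10, Malat1 lies on chromosome 19 from 5795690 to 5802672 on the minus strand, with 6983 bases of exon. Neat1 lies 22.0 kb away, from 5824708 to 5845478 on the same strand. Its 20771 bases of exon cover both the short isoform and the long one, which were not separated in the deposited gene-level values. Meg3 (chromosome 12, 109541001 to 109571726), Rian (109603808 to 109661716) and Mirg (109729764 to 109749460) follow each other on the plus strand, with gaps of 32.1 and 68.0 kb. H19 lies on chromosome 7 from 142575529 to 142578143 on the minus strand, with 2460 bases of exon.

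The promoters of Meg3 and Malat1 are shown because the levels of these RNAs moved together over the libraries, as described further on. They are windows of 300 bases across the annotated start in RefSeq on GRCm38.p6, the assembly also called mm10. Capitals mark the motifs that were searched for on both strands, which were the cyclic AMP response element TGACGTCA and its part TGACG, the E-box CACGTG, the CCAAT box CCAAT, the GC box GGGCGG and the TATA box TATAAA.
Meg3, chr12:109540746-109541045, plus strand: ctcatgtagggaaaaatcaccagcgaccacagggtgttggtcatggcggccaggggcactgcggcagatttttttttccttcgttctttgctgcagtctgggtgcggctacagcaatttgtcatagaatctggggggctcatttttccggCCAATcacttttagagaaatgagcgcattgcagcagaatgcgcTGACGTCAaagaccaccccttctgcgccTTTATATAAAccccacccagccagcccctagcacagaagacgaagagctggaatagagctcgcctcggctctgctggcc
Malat1, chr19:5802623-5802922, minus strand: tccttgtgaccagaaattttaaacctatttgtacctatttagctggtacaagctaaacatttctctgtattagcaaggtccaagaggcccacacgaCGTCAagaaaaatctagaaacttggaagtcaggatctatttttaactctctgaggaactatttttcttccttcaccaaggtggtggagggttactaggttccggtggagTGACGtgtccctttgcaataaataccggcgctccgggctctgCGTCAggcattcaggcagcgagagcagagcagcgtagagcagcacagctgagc
The Meg3 window held CCAAT and, on both strands, TATAAA. Of 32817 promoters of the same length, 37.4% hold CCAAT and 13.6% TATAAA on at least 1 strand. The window also held the full TGACGTCA at bases 194 to 201, a sequence found in 1.79% of the promoters. That element is the known binding sequence of cyclic AMP response factors at the Meg3 promoter. The matches to TGACG at bases 194 to 198 and 197 to 201 overlap within it. The Malat1 window held TGACG at 3 places, at bases 97 to 101, 206 to 210 and 248 to 252, and 20.8% of all promoters hold it at least once. None of the other motifs, the full response element among them, had a match in the Malat1 window. These matches describe letters and show no binding. The second Meg3 start and the Rian start held no match to any of the 6 motifs. Neat1 and H19 are named only.

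Mature microRNAs of these hosts are shown because they are what the host transcripts carry as products. RefSeq places 20 hairpins with 37 mature arms inside them: 1 hairpin in H19, 2 in Meg3, 3 in Rian and 14 in Mirg, with none in Malat1 or Neat1. Capitals mark the seed, bases 2 to 8, which pairs with targets.
miR-675-5p, in H19: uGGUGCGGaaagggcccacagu
miR-675-3p, in H19: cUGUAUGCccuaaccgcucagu
miR-770-5p, in Meg3: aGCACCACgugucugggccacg
miR-770-3p, in Meg3: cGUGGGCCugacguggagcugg
miR-370-3p, in Rian: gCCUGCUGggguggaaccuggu
miR-453, in Mirg: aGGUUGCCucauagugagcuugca
miR-496a-5p, in Mirg: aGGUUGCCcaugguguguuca
The 37 arms had 36 different seeds. The 1 shared seed, GGUUGCC, belonged to miR-453 and miR-496a-5p, both in Mirg. Mature microRNAs were not measured here, so the values below are those of the host transcripts.

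Depth was 36.4 to 42.3 times 1000000 reads per library, as read from the size of the smallest step between CPM values, and the libraries correlated with each other at Pearson r 0.952 to 0.995 over all genes. Fast fibre genes (12 of 12 markers tested) summed to 162350 to 217620 CPM, and all 12 are markers of the labelled muscle. Of the markers of regenerating fibres and myoblasts, 7 of 11 reached the minimum. Saline replicate 4 had the highest adipocyte score of the 11 libraries (3.99, the mean log2 distance of the list's genes from their average) and saline replicate 6 the highest slow fibre score (2.64). In bulk muscle, fewer cells of a type and less RNA per cell cannot be told apart.

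All 6 RNAs were detected in every library, at levels that fell into 3 tiers. Per kb of exon, which allows genes to be compared, the median over the 11 libraries was 124 CPM per kb for H19, 29.7 for Neat1 and 27.5 for Malat1. It was 0.248 CPM per kb for Meg3, 0.145 for Rian and 0.0162 for Mirg. H19 was above Neat1 in 10 of 11 libraries and above Malat1 in 10 of 11. Neat1 was above Malat1 in 6 of 11, so this pair had no steady order. Meg3 was above Rian in 9 of 11 libraries, and both were above Mirg in 11 of 11. The per-kb values rest on the union of annotated exons, and which isoforms muscle uses was not tested.

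Malat1 was the most uneven of the 5 tested RNAs. In saline it stood at 131, 426, 360 and 49.5 CPM in replicates 2, 3, 4 and 6. In young serum it stood at 175, 255, 192 and 390 CPM in replicates 1 to 4, and in EV-depleted serum at 178, 41.3 and 769 CPM in replicates 2 to 4. Both the lowest and the highest library were thus in the EV-depleted group, 18.6-fold apart, and the young serum libraries lay inside the range of each other group. The group means were 242 ± 180 (SD, n = 4), 253 ± 97.6 (SD, n = 4) and 329 ± 387 CPM (SD, n = 3).

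Neat1 kept the same outline with smaller steps. It stood at 468, 1231, 1093 and 339 CPM in saline, at 524, 617, 672 and 762 CPM in young serum, and at 494, 286 and 1068 CPM in EV-depleted serum, in the same order of replicates. Saline replicate 6 and EV-depleted replicate 3 were lowest, and saline replicates 3 and 4 and EV-depleted replicate 4 were highest. Young serum libraries again lay between these extremes. The means were 783 ± 445, 644 ± 99.7 and 616 ± 405 CPM (SD, n = 4, 4 and 3).

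The RNAs of the Dlk1-Dio3 domain were scarce. Meg3, the domain's best studied RNA, stood at 2.24, 8.38, 5.75 and 3.40 CPM in saline, 3.06, 4.49, 7.84 and 6.27 CPM in young serum and 2.42, 1.14 and 8.67 CPM in EV-depleted serum. Its extremes were EV-depleted replicates 3 and 4, as for Malat1. Rian, the host of many C/D box small nucleolar RNAs, stood at 2.16, 3.47, 2.65 and 3.14 CPM in saline, 1.91, 3.63, 6.99 and 2.12 CPM in young serum and 2.50, 1.69 and 5.16 CPM in EV-depleted serum. Young serum replicate 3 and EV-depleted replicate 4 stood above the other 9 libraries. Young serum replicate 3 also had the highest score of the regenerating fibre and myoblast list, 0.85, against -0.29 to 0.33 in the other 10 libraries. The part of that in the Rian level was not tested.

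Mirg, the most distal host of the domain, stood at 0.102, 0.440, 0.118 and 0.0503 CPM in saline, 0.127, 0.110, 0.599 and 0.0766 CPM in young serum and 0.194, 0.0519 and 0.337 CPM in EV-depleted serum. These levels correspond to between 2 and 23 reads a library, so a library's value is imprecise. Saline replicate 3, young serum replicate 3 and EV-depleted replicate 4 were the highest of their groups. Group means were 0.177 ± 0.177, 0.228 ± 0.248 and 0.194 ± 0.142 CPM (SD, n = 4, 4 and 3), and the groups overlapped.

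H19 had another order of libraries. It stood at 346, 305, 90.0 and 202 CPM in saline, 166, 314, 310.4 and 148 CPM in young serum and 294, 390 and 332 CPM in EV-depleted serum. Its highest library, EV-depleted replicate 3, was the lowest for Malat1, Neat1, Meg3 and Rian, and its lowest was saline replicate 4. The EV-depleted libraries were close together at 339 ± 48.2 CPM (SD, n = 3), beside 236 ± 115 in saline and 235 ± 89.6 CPM in young serum (SD, n = 4 each), and saline replicates 2 and 3 and young serum replicates 2 and 3 lay above the lowest of them. Saline replicate 4 also carried 6830 CPM summed over 11 adipocyte markers, against 404 to 679 CPM in the other saline libraries, 266 to 546 CPM in young serum and 300 to 562 CPM in EV-depleted serum. The part of fat tissue in its H19 level was not tested.

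**Figure D1:**
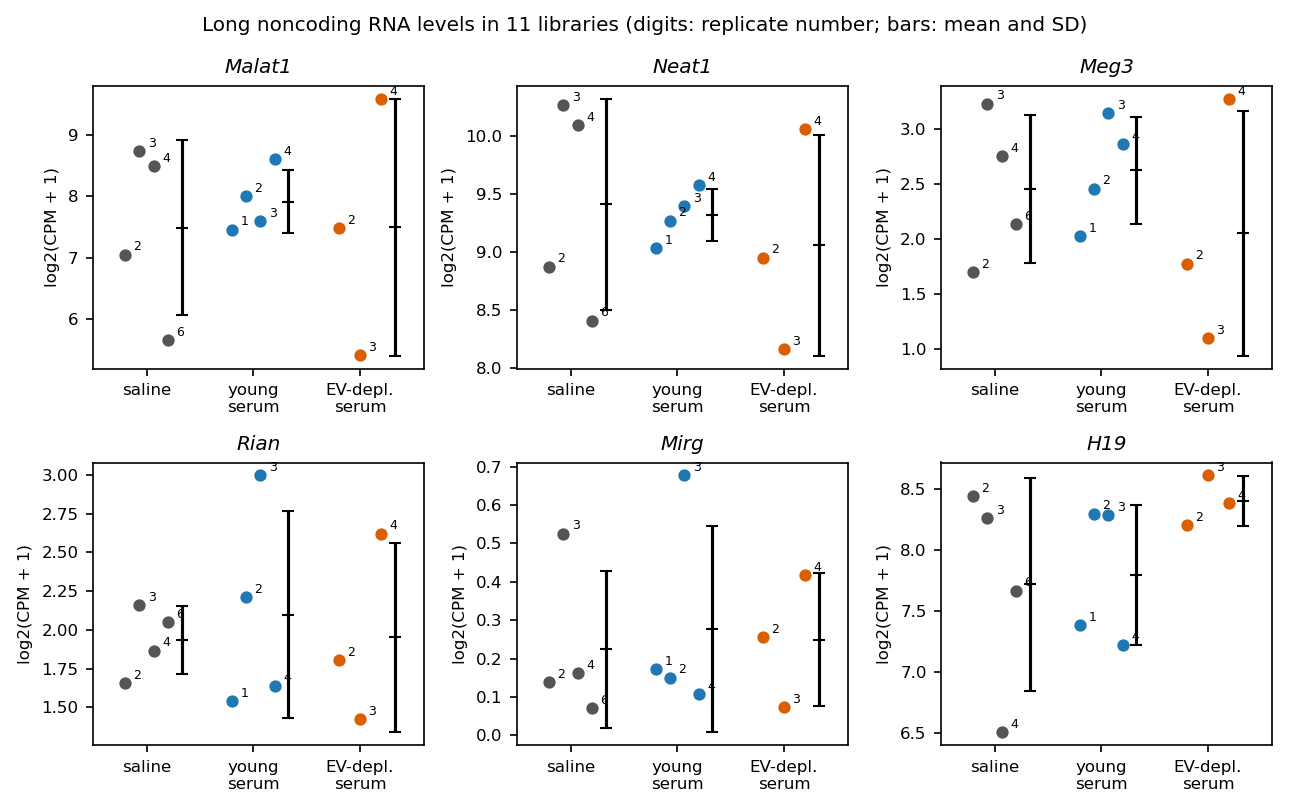
Level of each RNA as log2(CPM + 1) in every library, by group (panels have their own vertical axes). Points are libraries with their replicate number, and the bar beside each group is the mean and SD. In every panel the groups overlap, and EV-depleted replicates 3 and 4 lie at opposite ends for Malat1 and Meg3.

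The design asks whether young serum changed expression in old muscle. For these RNAs no difference passed the test between young serum and saline. On the log2(CPM + 1) scale, which understates changes of low genes, Malat1 differed by 0.43 ± 0.82 (SE; 95% interval -1.38 to 2.23; limma, adjusted p = 0.777). Neat1 differed by -0.09 ± 0.44 (interval -1.06 to 0.88; adjusted p = 0.919). Among the imprinted RNAs the differences were 0.17 for Meg3 (interval -0.83 to 1.17), 0.16 for Rian (interval -0.56 to 0.88) and 0.08 for H19 (interval -0.77 to 0.92), whose mean CPM was 235 and 236, the other direction. Of the 5 tested RNAs 0 passed after adjustment, with a background of 0% of all 13187 genes. At an unadjusted p under 0.05 there were 0 of 5, beside 21.9% of all genes, and 0 of 5 had groups that did not overlap, beside 12.2% of all genes. The count of 0 for all genes after adjustment came from limma, whose smallest adjusted p was 0.0767. For Mirg, the exact permutation test of CPM gave p = 0.6 (two-sided), where 4 against 4 libraries can reach 0.0286.

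The sign of each of these 5 differences hung on single libraries. Malat1 was at -0.18 without saline replicate 6. Neat1 was at 0.19 and 0.14 when saline replicate 3 or 4 was left out and at 0.0028 without young serum replicate 1. Meg3 was at -0.085 without saline replicate 2 and -0.0063 without young serum replicate 3, and Rian at -0.14 without young serum replicate 3. H19 was at -0.32 without saline replicate 4, -0.088 without young serum replicate 2 and -0.083 without young serum replicate 3. The interval of Malat1 runs from 0.385-fold to 4.69-fold and that of Neat1 from 0.478-fold to 1.84-fold, so the data do not show that young serum leaves these RNAs alone.

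After EV-depleted serum, too, 0 of 5 passed (background 0% of all genes after adjustment by limma, smallest adjusted p 0.0684). There were 0 of 5 at an unadjusted p under 0.05, beside 12.1% of all genes, and 0 of 5 without overlap, beside 7.42%. H19 had the largest difference from saline, 0.68 ± 0.42 (SE; interval -0.23 to 1.59; adjusted p = 0.467), a 1.60-fold higher level. Its sign was the same in every alternative fit, which ranged from 0.049 to 0.92 with adjusted p from 0.227 to 0.971, and it was 0.28 without saline replicate 4. Meg3 differed by -0.41 ± 0.49 (interval -1.48 to 0.67) and Neat1 by -0.35 ± 0.48 (interval -1.40 to 0.70). Without EV-depleted replicate 3 these 2 stood at 0.070 and 0.096. Rian differed by 0.02 (interval -0.76 to 0.79) and Malat1 by 0.0067 (interval -1.94 to 1.95). The Malat1 value was -1.04 without EV-depleted replicate 4 and 1.05 without replicate 3. For Mirg the exact permutation p was 0.971, where 4 against 3 libraries can reach 0.0571.

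Between the sera, which addresses what the vesicles add, the differences of young serum from EV-depleted serum were 0.42 for Malat1 (interval -1.53 to 2.37), 0.26 for Neat1 (interval -0.79 to 1.31), 0.57 for Meg3 (interval -0.50 to 1.65) and 0.15 for Rian (interval -0.63 to 0.92). H19 differed by -0.60 ± 0.42 (SE; interval -1.51 to 0.31). For Malat1 the direction turns with the scale, since its mean CPM was lower in young serum (253) than in EV-depleted serum (329). Each had an adjusted p of 0.99998 by limma. None of the 5 passed after adjustment (background 0%), 0 had an unadjusted p under 0.05 (2.23% of all genes) and 0 had groups without overlap (6.11%). Malat1 was at -0.62, Neat1 at -0.19 and Rian at -0.12 without EV-depleted replicate 3, and Rian at -0.15 without young serum replicate 3. The exact permutation p of Mirg was 0.971. The comparisons share libraries, so their values are not independent of each other.

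**Figure D2:**
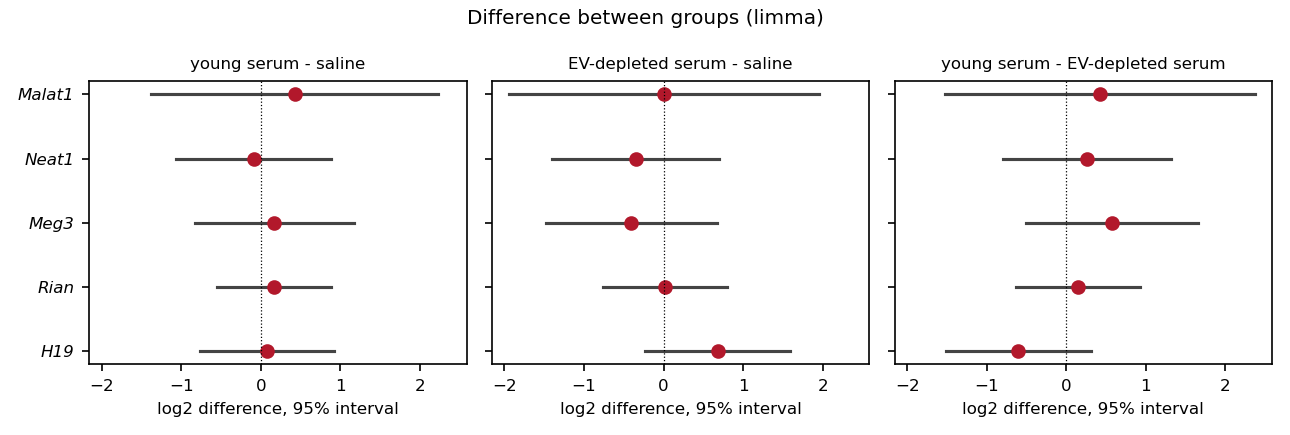
Log2 difference between groups for the 5 tested RNAs in the 3 comparisons, on log2(CPM + 1). Points are limma estimates and lines their 95% intervals. Every interval crosses 0, and those of Malat1 are the widest.

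These RNAs had a wide spread between libraries of 1 group, beside that of most tested genes. On the log2 scale the SD within groups was 1.40 for Malat1, beside a median of 0.258 over the 13187 tested genes, and 32 genes were more variable. Meg3 had 0.76, Neat1 0.75, H19 0.65 and Rian 0.53, which placed 97.4%, 97.3%, 95.8% and 91.5% of the tested genes below them. By the step size, Malat1 had 1593 to 29711 reads a library and Meg3 44 to 343. Malat1 had an SD of 1.43 within saline, 0.52 within young serum and 2.09 within EV-depleted serum. Neat1 had 0.91, 0.23 and 0.95 and H19 0.87, 0.57 and 0.20 in the same groups. Whether the spread itself differed between groups was not tested. A wide range over the 11 libraries was not particular to these RNAs. Among other long noncoding and imprinted genes, some ranged widely, such as Firre (3.32 to 24.6 CPM) and Peg3 (1.97 to 32.6 CPM). Others ranged narrowly, such as Gnas (973 to 1251 CPM).

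**Figure D3:**
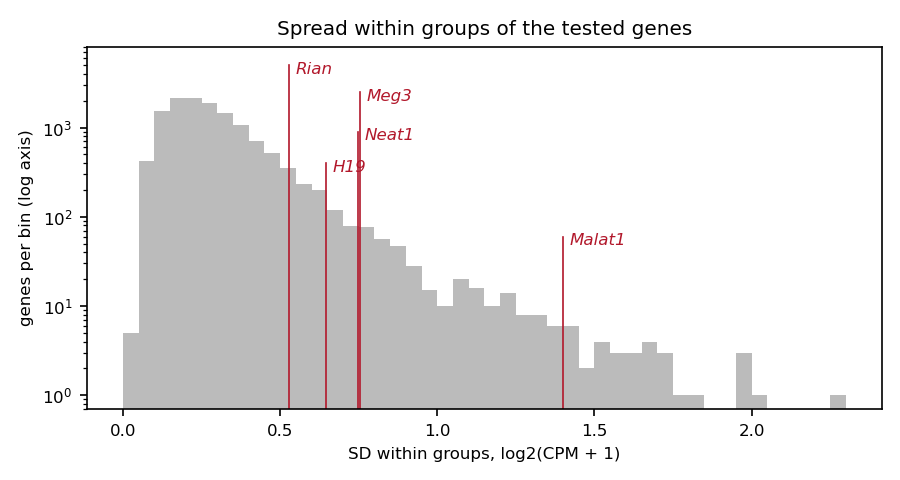
Number of tested genes by their SD within groups on log2(CPM + 1), in bins of 0.05, with a logarithmic vertical axis. Red lines mark the 5 tested RNAs; line heights carry no value. Malat1 lies in the far tail at 1.40, and the other 4 lie between 0.53 and 0.76.

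Malat1, Neat1 and Meg3 rose and fell together over the 11 libraries. Malat1 and Neat1 correlated at Pearson r 0.936 and Spearman rho 0.936 (permutation p = 1e-05 and 8e-05, n = 11; 0.0001 and 0.0008 after Benjamini-Hochberg over the 10 pairs of the 5 RNAs). The value 1e-05 is the smallest that the permutations can give. The correlation was 0.966 on values centred within groups, 0.905 without the 2 libraries farthest from the Malat1 median, and 0.908 to 0.950 when any 1 library was left out. Neat1 and Meg3 correlated at r 0.871 and rho 0.864 (permutation p = 0.00051 and 0.00101; adjusted 0.00255 and 0.00337), with r 0.770 without the 2 farthest libraries. This relation no longer passed without EV-depleted replicates 3 and 4 (r 0.775, adjusted p = 0.0765), though it passed with any 1 library left out. Meg3 lies on chromosome 12, and Malat1 and Neat1 are neighbours on chromosome 19.

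Malat1 and Meg3 correlated at r 0.808 and rho 0.882 (permutation p = 0.00234 and 0.00066; adjusted 0.0078 and 0.0033). This relation, too, leaned on the extremes: r was 0.619 without EV-depleted replicates 3 and 4 (adjusted p = 0.21), and 0.704 without replicate 3 alone (adjusted p = 0.0629). Meg3 and Rian, neighbours in 1 domain, correlated at r 0.724 and rho 0.727 (permutation p = 0.0107 and 0.0145; adjusted 0.0268 and 0.0363). Their adjusted p was 0.0555, 0.0857 and 0.0757 without saline replicate 2, EV-depleted replicate 3 and EV-depleted replicate 4, with r of 0.704, 0.662 and 0.666. Malat1 and Neat1 also showed a positive r within each group, 0.980 for saline, 0.795 for young serum and 0.996 for the EV-depleted group, over 4, 4 and 3 libraries.

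The other 6 pairs did not pass. Rian correlated with Malat1 at r 0.403 and rho 0.527 (permutation p = 0.216 and 0.1; adjusted 0.36 and 0.201), and with Neat1 at r 0.443 and rho 0.491 (permutation p = 0.172 and 0.129; adjusted 0.345 and 0.216). H19 had r between -0.302 (with Neat1) and 0.263 (with Rian) with the other 4 RNAs, with adjusted permutation p of 0.523 or above. By Spearman the adjusted permutation p was 0.354 or above, lowest with Neat1 (rho -0.382). The RNAs of a library share its preparation and its CPM total, and the labels name no sequencing batch within which the correlations could be repeated.

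**Figure D4:**
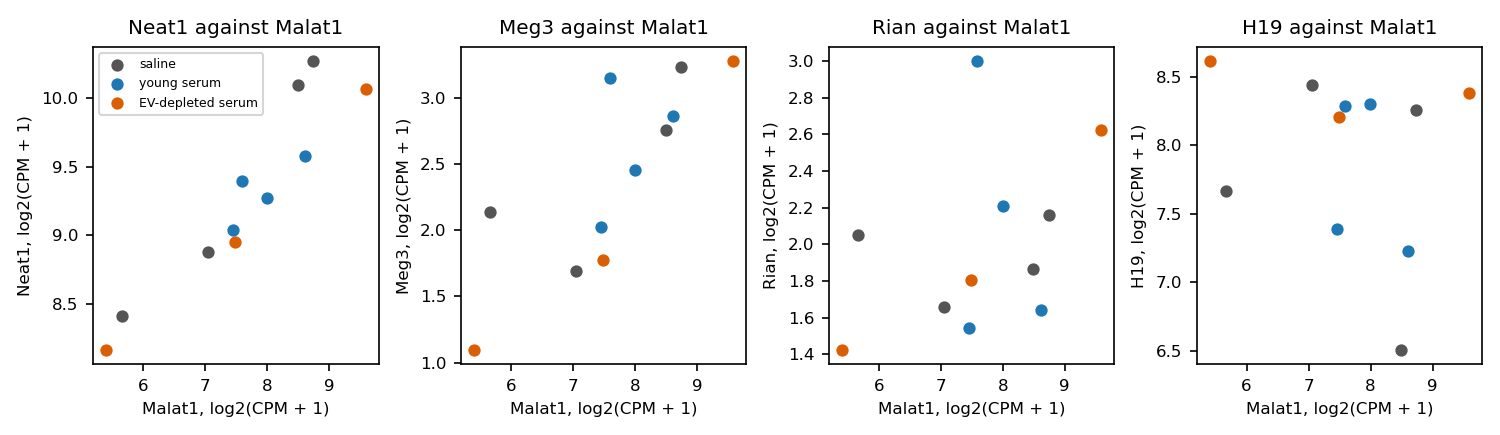
Neat1, Meg3, Rian and H19 against Malat1, each point 1 library on log2(CPM + 1), coloured by group. Neat1 follows Malat1 closely (r 0.936), Meg3 less so (0.808), and Rian (0.403) and H19 (-0.217) do not pass the test.

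Ratios within a locus show where neighbours parted. Malat1 over Neat1 in CPM was lowest in EV-depleted replicate 3 and saline replicate 6, at 0.145 and 0.146, and highest in EV-depleted replicate 4 and young serum replicate 4, at 0.720 and 0.511. Malat1 thus moved by more than Neat1 in the same libraries. Meg3 over Rian ran from 0.677 in EV-depleted replicate 3 to 2.96 in young serum replicate 4, and Meg3 over Mirg from 12.4 to 81.9. The log2 of Malat1 over Neat1 had means of -1.93 ± 0.57 with saline, -1.41 ± 0.37 with young serum and -1.58 ± 1.16 with the EV-depleted serum (SD; n = 4, 4 and 3), with overlapping groups.

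Genes whose pattern was most like each RNA, by Pearson r on log2(CPM + 1) over the 11 libraries, are given as a description. Predicted genes and pseudogenes were left out before ranking. For Malat1 they were Firre (0.971), itself a nuclear long noncoding RNA, Pnisr (0.970), whose protein lies in nuclear speckles, Ppp1r12a (0.969), a myosin phosphatase subunit, the exportin gene Xpo6 (0.967) and Mapk8ip3 (0.964). For Neat1 they were Kcnq1ot1 (0.984), an imprinted nuclear antisense RNA, Rsrp1 (0.979), an arginine and serine rich protein, Leng8 (0.978), Snrnp70 (0.975), a protein of the U1 splicing particle, and the cyclin Ccnl2 (0.967). Firre stood at 3.32 CPM in saline replicate 6, 3.94 in EV-depleted replicate 3 and 24.6 in EV-depleted replicate 4. Kcnq1ot1 stood at 0.327, 0.363 and 2.96 CPM in the same libraries.

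For Meg3 the nearest genes were Ddb2 (0.893), a DNA damage binding protein, Prdm9 (0.890), Atxn7l2 (0.886), Ankzf1 (0.884) and the collagen Col7a1 (0.874). For Rian they were Pdk4 (0.828), which restrains pyruvate dehydrogenase, Gbp6 (0.810), an interferon-induced GTPase, Enpp1 (0.809), Tfb1m (0.803) and Spats2l (0.80). For H19 they were Sord (0.863), sorbitol dehydrogenase, Esrrg (0.846), a nuclear receptor of oxidative muscle, Fndc5 (0.838), the precursor of irisin, Acad12 (0.817) and Coq9 (0.816), of coenzyme Q synthesis. The 5 nearest of the genes kept thus differed for every RNA.

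An r above 0.8 was found with 376 of 13186 genes for Malat1, 249 for Neat1, 50 for Meg3, 5 for Rian and 6 for H19. Leaving out the members, Malat1 and Neat1 shared 170 such genes, 45.5% of those of Malat1 and 68.8% of those of Neat1. Meg3 shared 44 with Neat1, 91.7% of its own and 17.8% of those of Neat1. Rian and H19 shared 0 with any other. These lists follow from the correlations among the RNAs themselves and are no further support for them.

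**Figure D5:**
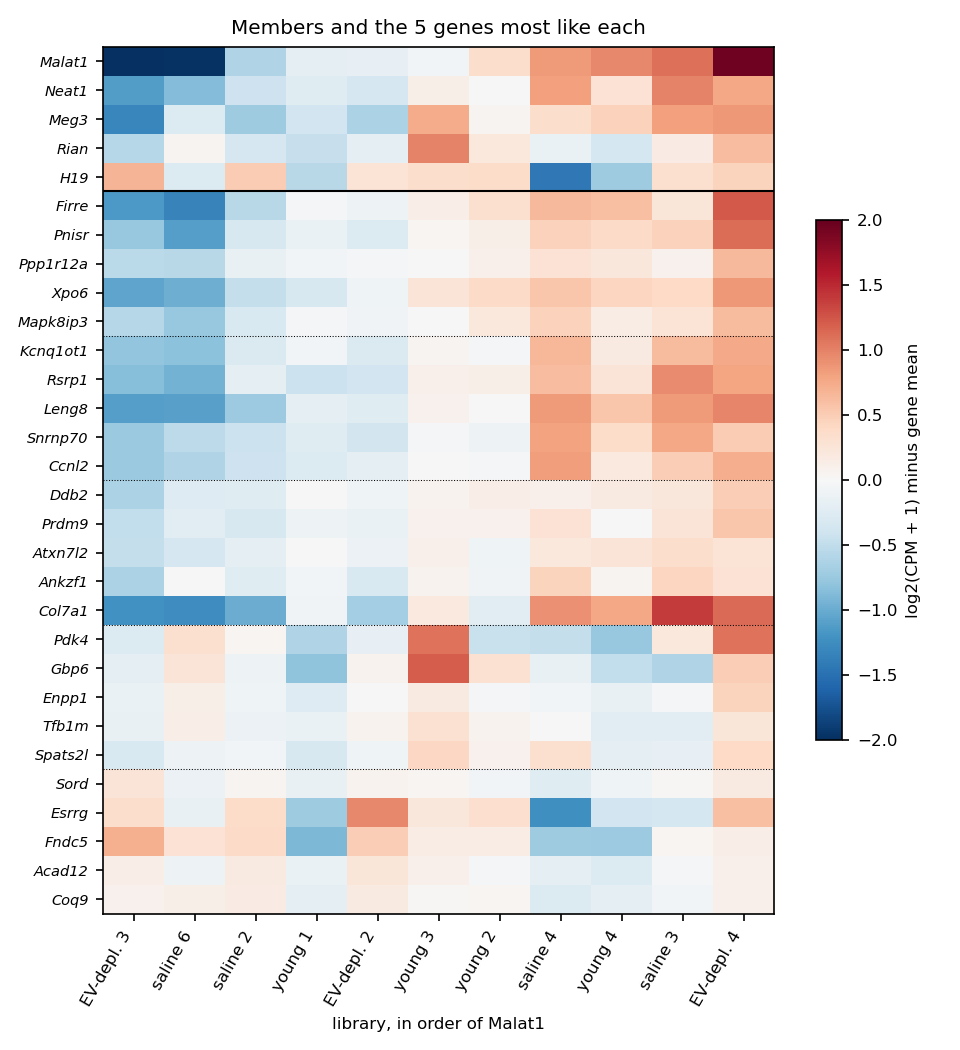
Log2(CPM + 1) minus the gene's mean over 11 libraries for the 5 tested RNAs (above the solid line) and the 5 genes most like each. Predicted genes and pseudogenes were left out, and the order is Malat1, Neat1, Meg3, Rian and H19. Libraries run from lowest to highest Malat1; the colour scale ends at 2 in each direction, and Malat1 goes past it in EV-depleted replicate 3. The blocks of Malat1, Neat1 and Meg3 run from blue to red with Malat1, and the blocks of Rian and H19 do not show this run.

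Of the genes that work with these RNAs, 0 passed in any comparison after adjustment in the fit of equal weights. The 23 genes picked from the lists had the largest moderated statistics of their lists in these same data. That more of them than of all genes pass in another fit follows from this choice. With array weights 12 of the 23 passed, where 3441 of all 13187 genes did after young serum and 1794 after EV-depleted serum. Without saline replicate 2, 4 of the 23 passed, where 251 of all genes did after young serum and 5 after EV-depleted serum. Of 25 nuclear speckle and SR protein genes, 0 passed in any of the 3 comparisons. Their median log2 difference between young serum and saline was -0.07, beside -0.02 for all genes. Srsf3, a splicing factor, averaged 28.0 ± 2.19 CPM in young serum and 39.6 ± 8.57 in saline (SD; limma, adjusted p = 0.180), and Son, a core speckle protein, 161 ± 16.8 and 119 ± 31.6 CPM (adjusted p = 0.281). Their levels nonetheless followed Malat1 and Neat1. All of 25 had a positive r with each, with medians of 0.686 and 0.726, beside 0.290 and 0.257 over all genes. An r above 0.8 was found for 10 of 25 with each, beside 2.85% of all genes with Malat1 and 1.89% with Neat1. Srsf11 (0.960 with Malat1) and the splicing kinase Clk1 (0.924 with Neat1) were highest. The speckle list score was -0.34 in saline replicate 6 and -0.23 in EV-depleted replicate 3, the lowest of 11, and 0.41 in saline replicate 4 and 0.36 in EV-depleted replicate 4, the highest.

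Of 25 paraspeckle protein genes 0 passed in any comparison, and 24 of 25 had a positive r with Neat1. Their median was 0.545, beside 0.257 over all genes. Rbmx was highest (0.857). Rbm14, a paraspeckle protein, averaged 7.45 ± 0.34 CPM in EV-depleted serum and 11.4 ± 2.98 in saline (adjusted p = 0.391 by limma). Of 10 tested genes that process the ends of Malat1 and Neat1, 0 passed in any comparison; the RNase P subunit Pop7 averaged 4.33 ± 0.46 CPM in young serum and 6.90 ± 1.09 in saline (adjusted p = 0.180). Pop7 passed in limma without saline replicate 2 (-0.66, adjusted p = 0.0484) and with array weights (-0.56, adjusted p = 0.0075). In these fits 251 and 3441 of all genes passed. The median r of the 10 genes was -0.219 with Malat1 and 0.043 with Neat1. All of 26 cytosolic ribosomal protein genes (median r -0.534) and 10 of 10 slow fibre genes (median r -0.551) had a negative r with Malat1. Saline replicate 6 held the highest score of both lists, 1.18 and 2.64. The fast fibre score, too, was highest in saline replicate 6 (0.24) and EV-depleted replicate 3 (0.18), the libraries lowest for Malat1. A relation of Malat1 to slow fibres in particular is thus not shown. The ribosomal list summed to 4250 to 14243 CPM in saline, 3626 to 4156 in young serum and 3625 to 5372 in EV-depleted serum, and its part in the Malat1 level was not tested.

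Within the Dlk1-Dio3 domain the protein-coding and antisense genes were near the floor. Dlk1 stood at 0.311 to 1.25 CPM, Dio3 at 0.0519 to 0.559, Dio3os at 0.259 to 0.889 and Begain at 0.0503 to 0.449. Of the 8 genes of the list 7 were in the expression table, and Rtl1 was absent. The 5 present other than Meg3 and Rian were below the minimum, so they were not tested with limma. Mirg, 1 of these 5, had the exact permutation test given above. Of 13 tested genes that act on Meg3 or the domain, 0 passed; the muscle transcription factor Mef2c averaged 633 ± 130 CPM in EV-depleted serum and 382 ± 103 in saline (SD; adjusted p = 0.328 by limma, 0.00893 with array weights). Their median r with Meg3 was 0.201, beside 0.138 for all genes, and the demethylase gene Tet2 was highest (0.665).

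In the H19 domain, Igf2, which encodes the fetal growth factor and shares enhancers with H19, stood at 12.0 to 22.5 CPM and had an r of 0.337 with H19. Nctc1, a noncoding transcript over the muscle enhancer of the domain, stood at 77.4 to 123 CPM with an r of -0.132. After the intact serum Igf2 averaged 18.0 ± 3.35 CPM and after the EV-depleted one 13.3 ± 1.45 CPM (SD; limma, adjusted p = 0.99998). Over the 7 tested genes within 150 kb, among them the fast troponins Tnni2 (0.010) and Tnnt3 (0.208), r with H19 ran from -0.319 (Lsp1) to 0.392 (Prr33). H19 had a negative r with all 10 tested genes of the adipocyte list (median -0.610) and a positive r with 10 of 10 slow fibre genes (median 0.414). The median over all genes was -0.188. The fast fibre score was also lowest in saline replicate 4 (-0.24), the lowest library for H19. It ranked 2 of 11 in EV-depleted replicate 3 (0.18), the highest for H19, and was highest in saline replicate 6 (0.24). A relation of H19 to slow fibres in particular is thus not shown. Saline replicate 4, lowest for H19, had an adipocyte score of 3.99, beside 0.40 in saline replicate 6, the next highest. It also had the highest macrophage, endothelial and fibro-adipogenic progenitor scores. The r of H19 with these lists was not computed without that library. Of the markers of macrophages, endothelial cells, fibro-adipogenic progenitors and Schwann cells 0 passed in any comparison, as for the adipocyte, fibre type, regeneration and ribosomal lists. Their median r with H19 was -0.489, -0.424, -0.331 and -0.429, and with Malat1 0.194, 0.270, 0.314 and 0.129. Whether the share of these cells has a part in the levels was not tested.

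Near Malat1 and Neat1 the neighbours did not share their pattern as a block. Over 13 tested named genes within 150 kb of Malat1, r ran from -0.566 to 0.817, and over 12 near Neat1 from -0.288 to 0.876. Dpf2, a subunit of chromatin remodelling complexes, was the 1 neighbour above 0.8 with each, but it stayed between 48.1 and 58.4 CPM. Gm37376, a predicted gene, overlaps Malat1 on the other strand and stood at 0.0114 to 9.71 CPM. Whether strand was used in counting is not stated, so reads of the overlap cannot be told apart.

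Among 25 tested imprinted genes of other loci, 0 passed in any comparison. Igf2r, the receptor that clears Igf2, averaged 94.9 ± 7.91 CPM in young serum and 68.5 ± 15.1 in saline (limma, adjusted p = 0.180, and 0.0102 with array weights). Snrpn averaged 32.4 ± 3.60 and 40.3 ± 2.46 CPM in the same order (adjusted p = 0.180); it overlaps Snurf, with which it shares transcripts, so these 2 are uncertain. Kcnq1ot1 was the imprinted gene most like Malat1 (0.949), Neat1 (0.984) and Meg3 (0.824). Of 26 other tested long noncoding RNAs 0 passed, and 19 of 26 had a negative estimate for young serum against saline, with a median of -0.27 beside -0.02 for all genes, 52.5% of which had a negative estimate. Gas5, a host of small nucleolar RNAs, averaged 15.2 ± 2.05 and 23.4 ± 5.87 CPM (adjusted p = 0.180), and Snhg1 3.006 ± 0.15 and 5.87 ± 2.50 CPM (adjusted p = 0.180). Snhg1 passed in limma without saline replicate 2 (-0.96, adjusted p = 0.0455), as did 251 of all genes. With array weights, where 3441 of all genes passed, Gas5, Snhg1 and the noncoding Epb41l4aos passed (limma, adjusted p = 0.0072, 0.011 and 0.0178). Firre, Kcnq1ot1 and Mir100hg were the 3 with an r above 0.8 with Malat1, whereas the snoRNA host Snhg6 had -0.575.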

How the data were processed

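RNA of 11 libraries was measured by sequencing. Per the submitters' processing notes, FastQC, STAR, DESeq2 and the mm10 build were used; versions, annotation, strand handling and read ends are not given in the sources used here. The authors deposited CPM values per gene, which sum to 1000000 per library after removal of an offset of 0.0001, and TPM values, which are CPM divided by the genomic span and rescaled to 288820. The CPM step of 1 read gave the depth (36.4 to 42.3 times 1000000 reads); between 75.4% and 78.8% of values from 0.01 to 1 CPM were whole within 0.1 reads, too few to rebuild counts, so no count model was fitted.

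Values were taken as log2(CPM + 1). limma 3.58.1 (R 4.3.3) fitted 3 groups in 1 model over genes that reached 1 CPM in 3 or more libraries, with a mean-variance trend, two-sided tests and Benjamini-Hochberg adjustment over 13187 genes at 0.05; it was tested on simulated data. Mirg was compared by an exact permutation test, and correlations used 100000 permutations. Named besides the 6 RNAs are neighbours within 150 kb, up to 3 genes per list by the largest moderated statistic, and the 5 genes with the highest r. Predicted genes and pseudogenes were left out of these 5. List genes with the highest r, those of the Dlk1-Dio3 list and Mir100hg, Snhg6, Tet2, Peg3 and Gnas were chosen after their values were seen. The members, lists and tests were chosen with earlier results of these data known. Alternatives were other pseudocounts, filters, scalings, the TPM table, fits of 2 groups, a replicate block, robust moderation, array weights and left-out libraries; leaving out EV-depleted replicates 3 and 4 together was added after seeing the data. Sequences are from RefSeq on GRCm38.p6.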

Additional observations from a re-analysis of the deposited data

Results flagged for a closer look

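Mirg in young serum replicate 3 stood far from the rest of its group, at 0.599 CPM against 0.0766 to 0.127 CPM in the other 3 libraries, and on the log2(CPM + 1) scale its gap to the next library was 0.884 of the group's range. It was the 1 sample to stand out among 12 groups of 4 libraries examined, and chance gives about 1 in 20. Rian was highest in the same library, at 6.99 CPM. Without it, the difference of Mirg between young serum and saline was -0.073 CPM in place of 0.051 CPM.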

How the results depend on the processing

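No alternative brought any of the 5 tested RNAs past the threshold in any comparison, in 347 estimates, 35 of which changed sign. Many of the 347 could not change sign. Other filters, fits of 2 groups, robust moderation and leaving out a library of neither group compared keep the main estimate. The 35 of 347 therefore does not measure how steady the signs are. Another 10 estimates, without EV-depleted replicates 3 and 4, rest on 1 EV-depleted library that is assumed to vary like the other groups; 2 of them changed sign. Between EV-depleted serum and saline, Malat1 was at -0.029 with median-of-ratios scaling, -0.044 with TPM, -0.90 with array weights, -0.40 without saline replicates 4 and 6 and -0.00054 without EV-depleted replicates 3 and 4 (chosen after seeing the data), and Rian at -0.0048 with a pseudocount of 0.1, -0.020 with median-of-ratios scaling, -0.25 with array weights and -0.13 without EV-depleted replicates 3 and 4. Between young serum and saline, array weights gave -0.38 for Malat1, -0.30 for Meg3 and -0.28 for H19, and H19 was at -0.55 without saline replicates 4 and 6. Mirg was at -0.042 and -0.076 CPM against saline for young and EV-depleted serum without those 2 libraries. The cause was not tested.

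With 1 library left out, the differences from saline after young serum ranged from -0.18 to 0.85 for Malat1, -0.43 to 0.19 for Neat1, -0.085 to 0.43 for Meg3, -0.14 to 0.35 for Rian and -0.32 to 0.32 for H19. After EV-depleted serum they ranged from -1.04 to 1.05, -0.85 to 0.096, -1.02 to 0.070 and -0.32 to 0.28 for Malat1, Neat1, Meg3 and Rian. Between the sera they ranged from -0.62 to 1.47 for Malat1, -0.19 to 0.76 for Neat1 and -0.15 to 0.48 for Rian. For Mirg the ranges were -0.073 to 0.138, -0.054 to 0.104 and -0.090 to 0.105 CPM.

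Over all genes, the count past the threshold was 0 in each comparison. For EV-depleted serum against saline it was 3 with a filter of 5 CPM, 6 with the replicate block, 1794 with array weights, 2 without saline replicates 4 and 6, and with 1 library left out 0 to 5, namely 5, 1 and 2 without saline replicates 2, 4 and 6 and 1 without EV-depleted replicate 4. For young serum against saline it was 3441 with array weights and 0 to 251 with 1 library left out, 251 without saline replicate 2 and 1 without saline replicate 6. Between the sera it was 24 with array weights. The estimate of the weights stopped before convergence and gave saline replicate 3 a weight of 3.32 and EV-depleted replicate 2 one of 4.19.

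With the replicate number as a block, Malat1 was at -0.029 after young serum and -0.60 after EV-depleted serum. Same-numbered libraries deviated together with r above 0.1 in 4 of 9 pairs (-0.277 to 0.300, median 0.092). Differently numbered libraries of different groups did so in 10 of 31 pairs (-0.501 to 0.536, median -0.040). The numbers were therefore not taken to pair the samples.

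Without EV-depleted replicates 3 and 4, r was 0.619 for Malat1 and Meg3, 0.775 for Neat1 and Meg3, 0.585 for Meg3 and Rian, which no longer passed, and -0.012 for Malat1 and Rian. With 1 library left out, r ranged from 0.704 to 0.877 for Malat1 and Meg3 and from 0.662 to 0.820 for Meg3 and Rian. Malat1 and Neat1 passed under each alternative, at 0.905 to 0.950. Scalings moved the median difference of all genes by at most 0.055. Groups of 3 and 4 libraries, and 2 to 23 reads for Mirg, limit what could be detected.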
